A study of Mus musculus with 48 samples.

Results

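The libraries compared here come from whole jejunum, the stretch of small intestine between duodenum and ileum, of mice written Bmal1iec-/- in the labels, taken at circadian time 13 (CT13, 4 libraries) and at circadian time 9 (CT9, 3 libraries). They were chosen by their genotype and time labels and are 7 of the 47 libraries with a column in the count table, which cover 2 genotypes and 6 times. Bmal1, whose gene symbol is Arntl, is a transcription factor of the circadian clock, and the genotype name is read as a loss aimed at intestinal epithelial cells. The same passage in mice with floxed alleles and no stated deletion (bmal1fl/fl, here called control, 4 libraries at CT9 and 4 at CT13) shares no library with it and served to show where the knockout differed. All mice were in constant darkness, where CT counts the hours of the animals' own cycle: CT9 falls in the late subjective day, when mice rest, and CT13 early in the subjective night, when they are active. The labels give no driver of the deletion, age, sex or feeding schedule, and whether a library stands for 1 mouse is not stated, so the tests weigh differences against a spread between samples that may be technical. One more knockout CT9 sample of the labels was not analysed here.

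The mammalian clock is a feedback loop in which BMAL1 and CLOCK switch on Per, Cry and Nr1d1 genes, whose proteins then hold BMAL1 back. An epithelium whose own loop is broken still receives daily signals from the rest of the body. These include feeding, core body temperature, nerves, and the adrenal glucocorticoid hormone, which in nocturnal rodents peaks around the start of activity. Whole jejunum also holds cells outside the epithelium, for which the genotype name, as read here, gives no loss. Heat shock genes respond to temperature and to unfolded protein, and genes such as Fkbp5 and Tsc22d3 are classical targets of the glucocorticoid receptor.

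Total counts were 5.46 to 6.36 M in the knockout CT9 libraries and 5.44 to 6.91 M in the knockout CT13 libraries, and 4.69 to 4.84% and 4.58 to 5.63% of counts came from mitochondrial genes. Levels are given as CPM (counts per M mapped to the genes tested, with libraries scaled to each other), in replicate order. The tissue label was matched by its markers: Vil1 stood at 2657 to 3446 CPM at CT9 and 3190 to 3715 CPM at CT13, Sis at 4121 to 5675 and 4356 to 6263, and none of the 8 enterocyte markers passed the test. Arntl itself, read over the whole gene, stood at 26.1, 26.7 and 31.8 CPM at CT9 and 28.2, 35.5, 29.4 and 31.6 CPM at CT13 in knockout, against 8.48 to 11.3 and 9.76 to 13.9 CPM in control. A count over all exons does not separate a deleted part from the rest, so this level does not check the genotype label. The number carried in the sample titles, whose meaning the labels do not give, was below 430 in all knockout CT9 libraries, in knockout CT13 replicate 1 and in all 8 control libraries, and above it in knockout CT13 replicates 2, 3 and 4. Outside the compared groups, 5 libraries stood apart from the rest, 3 of knockout CT1, 1 of knockout CT21 and 1 of control CT21, and they enter the shared estimate of spread.

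Between CT9 and CT13 the knockout jejunum changed in a small set of genes, led by the inducible HSP70 genes Hspa1b and Hspa1a, the glucocorticoid targets Fkbp5 and Tsc22d3, and the gluconeogenic genes Pck1 and G6pc, all of which rose. The clock gene Nr1d1 showed the largest fall among them. Of 15646 genes tested, 35 passed an adjusted p of 0.05 (0.224%): 29 rose (0.185%) and 6 fell (0.0383%), and 33 of the 35 moved by at least 1.5-fold (0.211%). In control, 523 genes passed (3.34%), 288 upward (1.84%) and 235 downward (1.5%). Of the 35 knockout genes, 28 also passed in control in the same direction, which is 80.0% of the knockout calls and 5.35% of the control calls, and none passed in the opposite direction. The median log2 change was -0.0005 over all genes in knockout and 1.03 in size over the 35, and the median standard error (SE) of a log2 change was 0.222 in knockout and 0.206 in control. Within knockout, 1854 genes (11.8%) had library values that did not overlap between the times, and all 35 genes were among them.

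The number of calls depended on the libraries used. Without the 5 libraries that stood apart, 177 of 16463 genes passed in knockout (1.08%, 113 higher and 64 lower) and 1391 in control (8.45%), and all 35 genes were among the 177. Only 5 genes passed without knockout CT9 replicate 2, without knockout CT9 replicate 3 or without knockout CT13 replicate 4, and 16 without knockout CT13 replicate 2. Fkbp5, Hspa1a, Hspa1b and Tsc22d3 passed whichever of the 7 libraries was left out, and the other 31 genes lost the call at least once. With a term for the sample number, 8 genes passed: these 4, Nr1d1, G6pc, Fmo2 and Herpud1. In a fit of only the libraries of the groups compared, 148 genes passed and 25 of the 35 were among them, but Hspa1b, Hspa1a, Fkbp5 and Tsc22d3 missed the threshold, with edgeR adjusted p of 0.0572 to 0.0743, as did Pck1 (adjusted p = 0.152). With voom, Hspa1b missed it (adjusted p = 0.0549). With knockout CT13 replicate 1 as the only CT13 library, below 430 like the CT9 libraries, Fkbp5 alone passed. That fit has 1 knockout library at CT13 and assumes that it varies like the other groups. No gene of the 35 changed direction in any of these fits, which was likely in advance because their library values did not overlap.

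**Figure D1:**
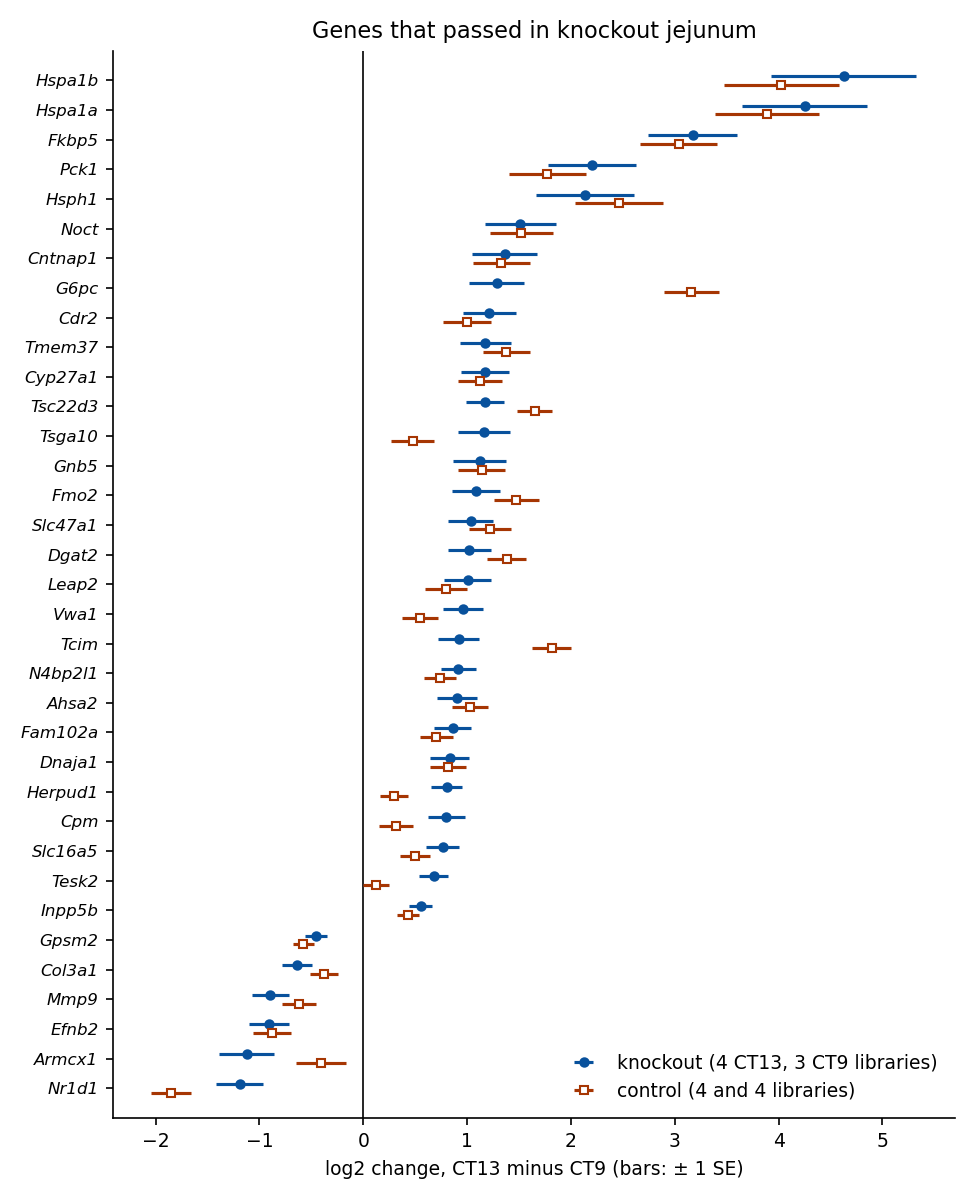
Log2 change from CT9 to CT13 (x axis, bars ± 1 SE) of the 35 genes that passed in knockout jejunum, ordered by size, with the knockout as filled circles and the control as open squares. 29 genes lie to the right of 0 and 6 to the left in knockout, every control value lies on the same side, and G6pc shows the widest gap between the genotypes.

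The largest rises belonged to the inducible HSP70 chaperones, which bind unfolded proteins. Hspa1b (chr17:34956436-34959238 of mm10, minus strand) stood at 0.866, 1.78 and 0.924 CPM at CT9 and at 22.4, 45.9, 13.4 and 41.3 CPM at CT13 in knockout. Every CT13 library lay above every CT9 library, and the log2 change was 4.63 (SE 0.70, adjusted p = 0.000386). Its neighbour Hspa1a (chr17:34969190-34972156, minus strand) stood at 0.173, 0.742 and 0.554 CPM at CT9 and at 5.41, 18.9, 4.69 and 10.9 CPM at CT13. Its log2 change was 4.25 (SE 0.60, adjusted p = 8.6e-05), but the CT9 level rests on 1, 5 and 3 counts. Summed over libraries, Hspa1a had 9 counts at CT9 and 228 at CT13, a ratio per total count of 18.7 with an exact 95% interval of 9.66 to 41.3 that covers counting error only. In control the changes were 4.03 (SE 0.56) for Hspa1b and 3.89 (SE 0.50) for Hspa1a, and the differences between genotypes, 0.60 (SE 0.90) and 0.37 (SE 0.85), did not pass.

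The genes are near-identical copies, and their promoters are shown because the copies moved together and their reads may be mixed. In the RefSeq table of the GRCm38.p6 build, the 250 bases before the start were identical at 247 positions (98.8%), and 58.8% of the 50-base windows of the Hspa1a transcript also occur in that of Hspa1b. How reads that fit both copies were counted is not given in the sources used here, so the split between the copies is uncertain. The window before Hspa1a lies at chr17:34972157-34972406 and that before Hspa1b at chr17:34959239-34959488, both on the minus strand. The capitals mark a short heat shock element, GAANNTTC, that starts 104 bases before the start in each.
Hspa1a: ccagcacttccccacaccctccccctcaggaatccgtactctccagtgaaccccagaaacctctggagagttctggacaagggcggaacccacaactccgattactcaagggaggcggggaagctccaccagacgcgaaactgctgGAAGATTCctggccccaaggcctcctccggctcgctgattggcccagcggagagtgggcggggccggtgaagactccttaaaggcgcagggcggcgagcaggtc
Hspa1b: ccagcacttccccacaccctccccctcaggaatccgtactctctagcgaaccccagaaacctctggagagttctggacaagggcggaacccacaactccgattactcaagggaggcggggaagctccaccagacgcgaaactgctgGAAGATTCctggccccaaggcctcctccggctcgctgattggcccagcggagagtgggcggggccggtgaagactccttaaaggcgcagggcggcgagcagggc
The full heat shock element of 3 units searched at first, GAANNTTC followed by NNGAA on either strand, occurs in 0.454% of the 11002 promoters of tested genes in that table and in 0 of the 27 promoters of genes that passed. The shorter forms it contains were added after seeing this: GAANNTTC occurs in 6.23% of promoters and in 3 of the 27 (Hspa1a, Hspa1b and Dnaja1), and TTCNNGAA in 7.32% and in 3 (Hsph1, Gnb5 and Inpp5b). These matches describe letters in a window and are not measured binding sites.

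Among the partners of HSP70, Hsph1, an HSP110 co-chaperone and nucleotide exchange factor, stood at 48.7, 44.5 and 71.7 CPM at CT9 and at 228, 271, 172 and 294 CPM at CT13. The CT13 libraries lay at more than 2 times the highest CT9 library, and the log2 change was 2.14 (SE 0.47, adjusted p = 0.0348), beside 2.46 (SE 0.43) in control. Dnaja1, an HSP40 co-chaperone, rose from 165 to 198 CPM at CT9 to 276 to 356 CPM at CT13, a log2 change of 0.83 (SE 0.19, adjusted p = 0.0353). Over the 20 genes of the heat shock and chaperone list, 4 rose and 0 fell in knockout, beside 0.224% of all genes that passed. Library values did not overlap for 14 of the 20, beside 11.8% of all genes, and the median log2 change was 0.66. In control 16 of the 20 rose, beside 1.84% of all genes, with a median of 0.87. The cytosolic HSP90 gene Hsp90aa1 had means of 197 and 400.8 CPM (log2 change 1.03, SE 0.27, adjusted p = 0.0919) and the constitutive HSP70 gene Hspa8 of 1213 and 2086 CPM (0.78, SE 0.22, adjusted p = 0.137), both short of the threshold in knockout and past it in control. None of the 20 passed the test of the difference between genotypes. The summed level of the list was 3227 to 3801 CPM at CT9 and 4791 to 6470 CPM at CT13 in knockout. In control it was 3072 to 5452 CPM at CT9 and 4748 to 8330 CPM at CT13, and these groups overlapped. Control CT9 replicate 4 had 1104 counts of Hsph1 and 47 of Hspa1b, against 937 and 43 in control CT13 replicate 3. Without the 5 libraries that stood apart, 7 of the 20 passed, with Dnajb1, Cacybp and Ahsa1 added, beside 1.08% of all genes in that fit. Outside the list, Ahsa2, related to an activator of HSP90 and named here after its values were seen, rose from 13.2, 18.9 and 17.4 to 24.7, 33.7, 26.0 and 39.0 CPM (0.90, SE 0.19, adjusted p = 0.0194).

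Fkbp5, a co-chaperone of the glucocorticoid receptor that the receptor itself induces, had the third largest rise. It stood at 10.6, 16.6 and 24.4 CPM at CT9 and at 147, 185, 83.2 and 204 CPM at CT13 in knockout. The lowest CT13 library lay above 3 times the highest CT9 library, and the log2 change was 3.17 (SE 0.43, adjusted p = 8.6e-05). In control it went from 16.1 to 57.7 CPM at CT9 to 167 to 325 CPM at CT13 (3.04, SE 0.37), and the difference between genotypes was 0.13 (SE 0.53). Tsc22d3, which encodes the glucocorticoid-induced leucine zipper GILZ, stood at 104, 85.6 and 79.1 CPM at CT9 and at 135, 243, 188 and 243 CPM at CT13 (1.17, SE 0.18, adjusted p = 0.000386), beside 1.65 (SE 0.17) in control. Both genes passed in every fit that left out 1 library and with the sample number term. Both missed the threshold with only the libraries of the groups compared (adjusted p = 0.0604 for Fkbp5 and 0.0743 for Tsc22d3). With replicate 1, numbered below 430, as the only knockout CT13 library, the log2 change of Tsc22d3 was 0.58, against 1.17 with all 4. The glucocorticoid-responsive list had 2 of 12 members past the test in knockout, both upward, with a median of 0.34. In control 4 of 12 passed, with a median of 0.35. Over all genes, 0.224% passed in knockout and 3.34% in control. The kinase gene Sgk1 (means 320 and 749 CPM, 1.23, SE 0.47, adjusted p = 0.426) and the zinc finger gene Zbtb16 (2.85 and 13.6 CPM, 2.28, SE 0.64, adjusted p = 0.137) did not pass in knockout and passed in control. The stress-induced metallothionein Mt1 had means of 58.5 and 74.6 CPM and Per1, also a receptor target, of 26.1 and 30.9 CPM, and neither passed in either genotype.

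**Figure D2:**
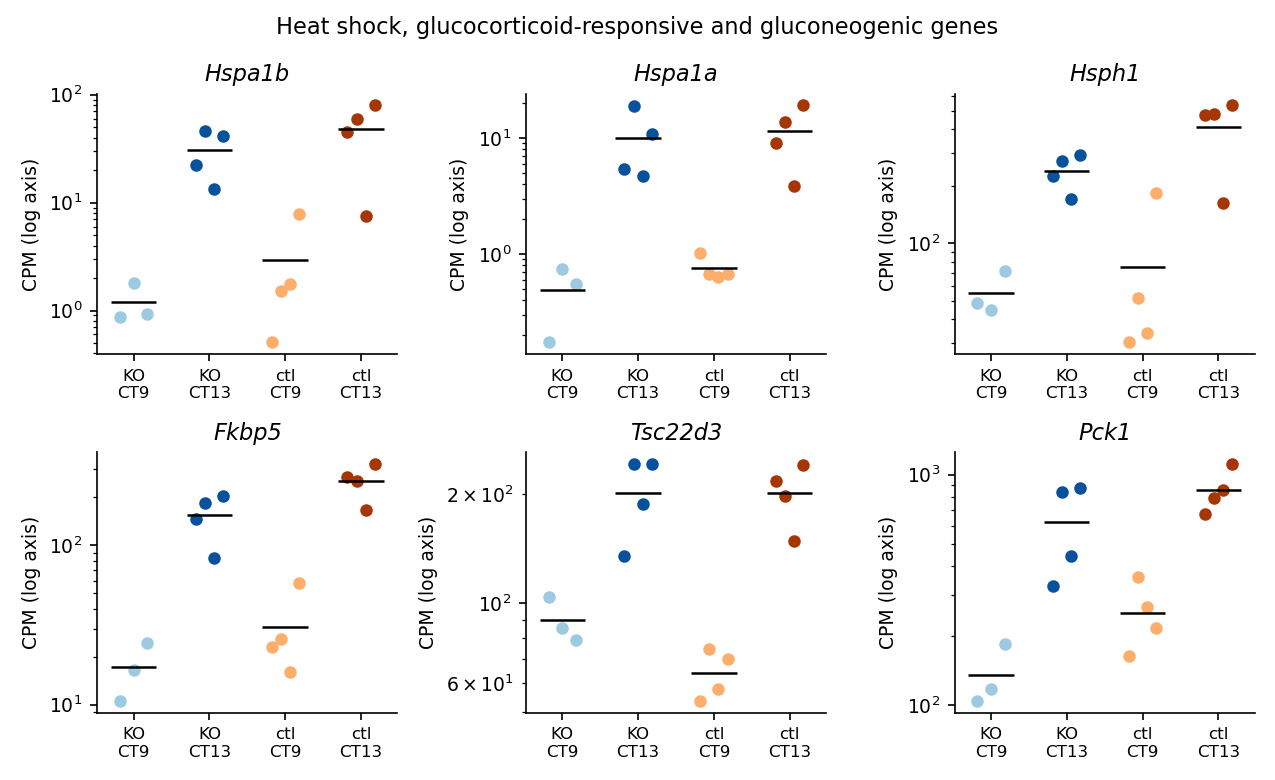
CPM on log axes of Hspa1b, Hspa1a, Hsph1, Fkbp5, Tsc22d3 and Pck1 in each library at CT9 and CT13 in knockout (KO, blue) and control (ctl, orange), with bars at the group means. In knockout all 4 CT13 points lie above all 3 CT9 points for each gene, and Hspa1b rises from a mean of 1.19 to 30.7 CPM.

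The promoter of Fkbp5 is shown because its start carries the 6-base E-box CACGTG, the letters that BMAL1 and CLOCK recognise, in a gene that rose in the libraries labelled knockout. The window lies at chr17:28486150-28486399 on the minus strand in GRCm38.p6, before the RefSeq start, and the E-box, in capitals, begins 169 bases before that start.
Fkbp5: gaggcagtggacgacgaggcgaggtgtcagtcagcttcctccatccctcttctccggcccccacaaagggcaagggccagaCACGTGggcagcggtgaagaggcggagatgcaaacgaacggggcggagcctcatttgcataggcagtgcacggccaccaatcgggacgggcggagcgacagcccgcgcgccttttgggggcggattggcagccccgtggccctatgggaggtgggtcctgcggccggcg
The E-box occurs in 9.55% of the 11002 promoters and in 3 of the 27 promoters of genes that passed, the others being those of Hsph1 and Tesk2. Whether it was bound was not measured.

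Pck1 and G6pc, 2 enzymes of glucose production, also rose. Pck1, the rate-limiting enzyme of gluconeogenesis from oxaloacetate, stood at 104, 118 and 184 CPM at CT9 and at 328, 842, 445.5 and 876 CPM at CT13. All CT13 libraries lay above the CT9 libraries (2.20, SE 0.42, adjusted p = 0.0127), beside 1.77 (SE 0.37) in control. With the sample number term the change of Pck1 was 1.61 (SE 0.41, adjusted p = 0.174). With replicate 1, numbered below 430, as the only knockout CT13 library, it was 1.27. G6pc, the catalytic subunit of glucose-6-phosphatase, which releases free glucose, stood at 78.4, 82.8 and 84.1 CPM at CT9 and at 246, 219, 123 and 210 CPM at CT13 in knockout (1.29, SE 0.26, adjusted p = 0.0176). It kept this call in 1 of the 7 fits that left out 1 knockout library. With replicate 1 as the only knockout CT13 library, the change of G6pc was 1.58. In control G6pc stood far lower at CT9, at 7.26, 16.6, 11.5 and 30.8 CPM, and reached 165, 138, 138 and 151 CPM at CT13 (3.16, SE 0.27). The difference between genotypes was -1.87 (SE 0.36, adjusted p = 0.0233). The CT13 values of the genotypes overlapped and the CT9 values did not. This difference missed the threshold on leaving out 10 of the 15 libraries in turn, with adjusted p up to 0.121. Of the 17 genes for sugar digestion, transport and metabolism these 2 passed in knockout, beside 0.224% of all genes, and the list median was 0.16.

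The G6pc promoter, at chr11:101367466-101367715 on the plus strand, is shown because it holds matches to 2 of the motifs searched. The capitals mark a D-box, TTANGTAA, which starts 162 bases before the start and is the element of DBP and NFIL3. They also mark a match to NNAGGTCA, searched as a REV-ERB/ROR element and found on the opposite strand 54 bases before the start. N is any base, so this match rests on AGGTCA alone and does not identify a REV-ERB or ROR site.
G6pc: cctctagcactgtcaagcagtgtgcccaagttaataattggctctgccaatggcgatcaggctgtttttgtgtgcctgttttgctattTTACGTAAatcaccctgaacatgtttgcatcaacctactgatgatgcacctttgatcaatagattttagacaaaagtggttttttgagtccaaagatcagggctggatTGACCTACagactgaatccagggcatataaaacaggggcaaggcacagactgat
Searched on both strands, the D-box occurs in 1.71% of promoters and in 1 of the 27 of genes that passed, this one. The letters NNAGGTCA occur in 13.4% and in 6 of the 27, those of G6pc, Dnaja1, Herpud1, Cpm, Fmo2 and Gnb5. The Nr1d1 and Pck1 promoters in the table held none of the motifs searched in these windows.

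Other rises were of single genes with varied roles. Dgat2, which performs the last step of triglyceride synthesis, stood at 196, 203 and 249 CPM at CT9 and at 505, 382, 364 and 503 CPM at CT13 (1.02, SE 0.21, adjusted p = 0.0163), the only 1 of 22 fat absorption genes to pass. Its control level was higher at both times, with means of 420 and 1095 CPM. Cyp27a1, the mitochondrial sterol 27-hydroxylase, stood at 64.2, 35.3 and 73.0 CPM at CT9 and at 112, 128, 119 and 159 CPM at CT13 (1.18, SE 0.23, adjusted p = 0.0147). The following 4 genes lie outside the naming rule and were chosen after their values were seen. Slc47a1, the MATE1 exporter of organic cations, rose from a mean of 68.5 to 140 CPM (1.03, SE 0.22). Slc16a5, a monocarboxylate transporter family member, rose from 97.0 to 165 CPM (0.76, SE 0.16). Fmo2, a flavin-containing monooxygenase, rose from 33.0 to 70.2 CPM (1.09, SE 0.23) and kept its call with the sample number term. Leap2, a peptide of liver and small intestine that antagonises the ghrelin receptor, rose from 46.9, 57.4 and 62.5 to 104, 105, 107 and 130 CPM (1.00, SE 0.22, adjusted p = 0.0299).

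Other lipid and oxidation genes had large values without passing. Pdk4, the kinase that turns off pyruvate dehydrogenase in fasting, stood at 35.5, 20.2 and 37.1 CPM at CT9 and at 71.7, 222, 126 and 300 CPM at CT13, with no overlap (2.54, SE 0.62, adjusted p = 0.0762), and passed without the 5 libraries that stood apart (adjusted p = 0.0160). None of the 22 genes of fatty acid oxidation and PPAR alpha targets passed, with a median of 0.12. None of the 30 sterol and fatty acid synthesis genes passed either, with a median of -0.33.

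Among the remaining rises, Noct, a clock output gene that encodes a phosphatase of NADPH, stood at 32.2, 28.9 and 68.4 CPM at CT9 and at 120, 112, 95.9 and 163 CPM at CT13 (1.51, SE 0.34, adjusted p = 0.0381). Its change was 1.52 (SE 0.30) in control, and the difference was -0.01 (SE 0.46). Cdr2, the cerebellar degeneration-related antigen, rose from 105 to 162 CPM at CT9 to 253 to 347 CPM at CT13 (1.2154, SE 0.26, adjusted p = 0.0200). Tmem37, related to calcium channel gamma subunits, stood at 30.8 to 40.8 and 64.3 to 101 CPM (1.18, SE 0.24, adjusted p = 0.0181). Cntnap1, a contactin-associated membrane protein, stood at 4.07 to 7.27 and 13.0 to 18.9 CPM (1.36, SE 0.31, adjusted p = 0.0414). It kept its call in 0 of the 7 fits that left out 1 knockout library. Herpud1, a component of the degradation of misfolded endoplasmic reticulum proteins, rose from 74.4, 71.2 and 68.6 to 142, 109, 118 and 129 CPM (0.80, SE 0.15, adjusted p = 0.00723) and was the only 1 of 20 endoplasmic reticulum folding and stress genes to pass. That list had a median of 0.26 in knockout, and the reticulum chaperone Hspa5 had means of 641 and 933 CPM (0.54, SE 0.21, adjusted p = 0.432).

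A further 8 rises lie outside the naming rule and were named after their values were seen: Tsga10 (1.16), Gnb5 (1.12), Vwa1 (0.96), Tcim (0.92), N4bp2l1 (0.92), Fam102a (0.86), Cpm (0.80) and Tesk2 (0.68), each given as a log2 change. Inpp5b, an inositol polyphosphate 5-phosphatase, also outside the rule, had the smallest rise (0.55, SE 0.11) and the tightest CT9 values, 87.3, 85.5 and 85.0 CPM, against 124, 139, 107 and 135 CPM at CT13. Low levels limit Tsga10, with means of 1.66 and 3.77 CPM. Of the 35 genes, 15 share exon bases with another annotated gene, 6 of them on the same strand. Nr1d1 overlaps Thra on the opposite strand. The strand setting of the counting is not given in the sources used here.

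In the clock, Nr1d1, which encodes the repressor REV-ERB alpha, stood at 24.2, 25.4 and 13.9 CPM at CT9 and at 8.78, 11.2, 8.67 and 8.51 CPM at CT13 in knockout. Its groups did not overlap, and it fell by 1.19 on the log2 scale (SE 0.23, adjusted p = 0.00957). In control Nr1d1 stood at 111 to 192 CPM at CT9 and 29.3 to 45.2 CPM at CT13, a change of -1.85 (SE 0.19). The difference between genotypes, 0.66 (SE 0.30), did not pass. Nr1d1 was the only 1 of 26 clock genes tested to pass in knockout, beside 0.224% of all genes. In control 10 of the 26 passed, 7 upward and 3 downward, beside 3.34% of all genes. Counts of calls in each genotype are not a test of the difference between them. Without Nr1d1 the clock lists had no call in knockout, and their medians lay between -0.25 and 0.20.

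Per2, a repressor of the loop that glucocorticoids and temperature also induce, came closest. It stood at 46.1, 48.1 and 72.1 CPM at CT9 and at 150, 108, 99.8 and 132 CPM at CT13, with no overlap (1.14, SE 0.29, adjusted p = 0.0794), and passed without the 5 libraries that stood apart (adjusted p = 0.00524). Per2 rose in control from 60.7 to 95.3 CPM to 181 to 248 CPM (1.55, SE 0.26). Dbp, a PAR bZIP factor driven directly by BMAL1 and CLOCK, had 18.7, 19.1 and 10.4 CPM at CT9 and 9.51, 8.03, 10.5 and 12.4 CPM at CT13 in knockout (-0.68, SE 0.22, adjusted p = 0.25005), against a fall from a mean of 77.2 to 27.0 CPM in control. Nfil3, its competitor at D-boxes, had means of 20.6 and 12.5 CPM (-0.73, SE 0.24, adjusted p = 0.285) and overlapping groups. Cry1 had means of 54.3 and 56.6 CPM in knockout and rose from 20.1 to 39.0 CPM in control. Bhlhe40, a helix-loop-helix repressor, had means of 136 and 155 CPM in knockout and rose from 86.6 to 173 CPM in control. Cry2 had 44.9 and 53.7 CPM in knockout and rose from 27.4 to 47.1 CPM in control. For Cry1 (-0.89, SE 0.30), Bhlhe40 (-0.80, SE 0.21) and Cry2 (-0.53, SE 0.21) the difference itself did not pass, so a call in control and none in knockout does not show that the genotypes differ there.

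The other clock genes had small changes in knockout. Among the activators, Clock had means of 96.3 and 103 CPM and Npas2 of 80.5 and 81.1 CPM, with log2 changes of 0.10 and 0.01, and Arntl2 was under 2.5 CPM in every library. Per1 (0.24, SE 0.30), Per3 (0.20, SE 0.21), Ciart (-0.47, SE 0.35) and Bhlhe41 (-0.41, SE 0.35) among the repressors did not pass, nor did the receptors Nr1d2 (-0.13, SE 0.25) and Rora (-0.02, SE 0.30). The PAR bZIP factors Tef (0.17, SE 0.14) and Hlf (0.47, SE 0.21) and the cell cycle kinase Wee1 (0.01, SE 0.16) did not pass in knockout, while Hlf and Wee1 rose in control (0.65, SE 0.19 and 0.62, SE 0.14).

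**Figure D3:**
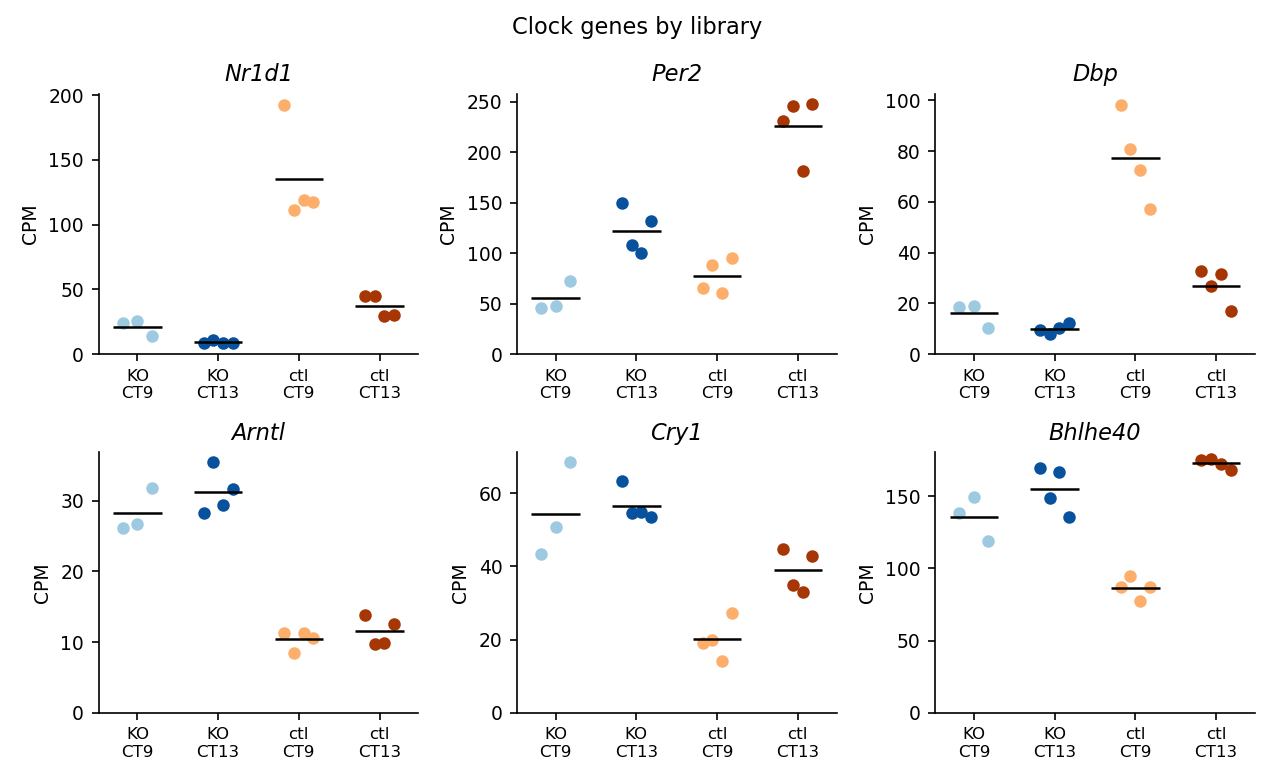
CPM of Nr1d1, Per2, Dbp, Arntl, Cry1 and Bhlhe40 in each library at CT9 and CT13 in knockout (KO, blue) and control (ctl, orange), with bars at the group means. Nr1d1 falls from 21.2 to 9.30 CPM in knockout and from 135 to 37.3 CPM in control, while the knockout groups of Arntl, Cry1 and Bhlhe40 overlap.

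The test of the difference between the genotypes passed for 4 of 15646 genes (0.0256%), and 634 had an unadjusted p under 0.05. In each of the 4 the control changed more, and the difference was negative. Ces1d, a carboxylesterase that hydrolyses lipids and drugs, stood at 25.1, 14.8 and 10.2 CPM at CT9 and at 7.90, 10.5, 17.3 and 17.2 CPM at CT13 in knockout, and at 18.9 to 22.4 and 111 to 134 CPM in control. Its groups overlapped in knockout and lay far apart in control, with a difference of -2.87 (SE 0.39, adjusted p = 3.5e-05). Pcp4l1, a small protein related to the calmodulin regulator PCP4, stood at 28.0, 28.4 and 19.96 CPM at CT9 and at 14.0, 17.7, 17.7 and 14.8 CPM at CT13 in knockout (-0.67, SE 0.24, adjusted p = 0.364). In control Pcp4l1 rose from a mean of 21.3 to 43.7 CPM (1.03, SE 0.22), and the difference was -1.70 (SE 0.32, adjusted p = 0.0233). G6pc is described above. Ces1d passed in all 15 fits that left out 1 library, whereas Pcp4l1 missed the threshold in 7 of them.

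Across the day, the knockout means of Ces1d lay between 11.4 and 16.7 CPM at the 6 times, and its control means ranged from 21.3 CPM at CT9 to 171 CPM at CT17. The highest of the 6 knockout means of Hspa1b (30.7 CPM), Fkbp5 (155 CPM), Pck1 (623 CPM) and Per2 (122 CPM) was at CT13. These genes were picked here for higher values at CT13 than at CT9 in the same libraries. A highest mean at CT13 was therefore favoured in advance and is no evidence of a daily rhythm. All values given across the day describe group means, and the knockout CT1 group holds 3 of the libraries that stood apart.

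**Figure D4:**
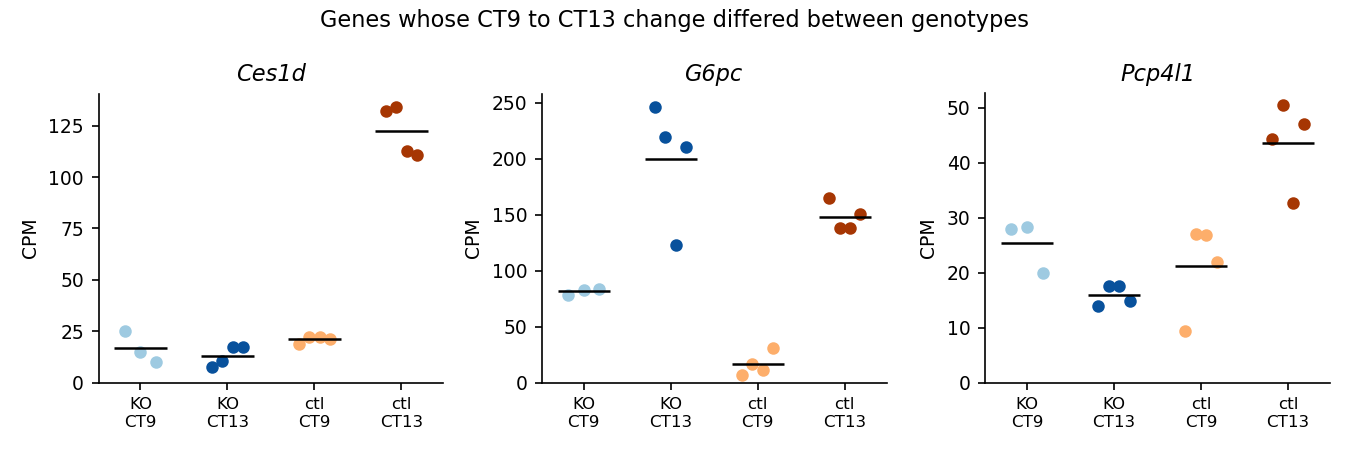
CPM of Ces1d, G6pc and Pcp4l1 in each library at CT9 and CT13 in knockout (KO, blue) and control (ctl, orange), with bars at the group means. Ces1d lies at 16.7 and 13.2 CPM in knockout and rises from 21.3 to 122 CPM in control, and G6pc starts from 81.8 CPM in knockout and 16.5 CPM in control.

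Of the genes that passed in knockout, 7 did not pass in control: Armcx1, Col3a1, Tesk2, Cpm, Herpud1, Vwa1 and Tsga10. The difference between genotypes did not pass for any of them. Herpud1 had the lowest adjusted p of the 7 in knockout and a control change of 0.30 (SE 0.13, adjusted p = 0.243), with a difference of 0.51 (SE 0.20). Tesk2, an actin-regulating kinase, changed by 0.68 (SE 0.14) in knockout and 0.12 (SE 0.13) in control, with a difference of 0.56 (SE 0.19).

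The falls beyond Nr1d1 were in 5 genes. Efnb2, a transmembrane ephrin ligand, stood at 95.0, 79.1 and 83.5 CPM at CT9 and at 57.3, 46.8, 47.1 and 31.1 CPM at CT13 (-0.91, SE 0.19, adjusted p = 0.0194), beside -0.88 (SE 0.18) in control. Mmp9, a matrix metalloproteinase, stood at 38.3, 28.6 and 38.6 CPM at CT9 and at 24.9, 14.99, 17.3 and 17.9 CPM at CT13 (-0.90, SE 0.18, adjusted p = 0.0147). Col3a1, the fibrillar collagen of connective tissue, stood at 338, 308 and 284 CPM at CT9 and at 254, 172, 198 and 174 CPM at CT13 (-0.63, SE 0.14, adjusted p = 0.0353). Armcx1, a protein of mitochondrial transport, stood at 5.17 to 9.20 and 2.50 to 3.79 CPM (-1.12, SE 0.26, adjusted p = 0.0437). Gpsm2, which orients the mitotic spindle, had the smallest change, from 84.1 to 101 CPM at CT9 to 65.5 to 73.4 CPM at CT13 (-0.46, SE 0.11, adjusted p = 0.0411). With replicate 1 as the only knockout CT13 library, the log2 changes were -0.59 for Efnb2, -0.50 for Mmp9 and -0.29 for Col3a1. In that fit they were -1.30 for Armcx1 and -0.53 for Gpsm2.

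Markers of the muscle wall had lower values at CT13 beside these falls. None of the 10 smooth muscle markers passed. Library values did not overlap for 9 of the 10, beside 11.8% of all genes, and all 10 had negative log2 changes in knockout. Markers of 1 tissue layer read in the same libraries are not separate observations. The median log2 change of the 10 markers was -0.51 in knockout and 0.33 in control. Their summed level was 2424, 2912 and 2244 CPM at CT9 and 1851, 1688, 1829 and 1889 CPM at CT13 in knockout, without overlap. The control groups ranged from 1215 to 2165 and from 1951 to 2634 CPM. Sums of several other lists did not overlap in knockout either, so this alone does not set the muscle markers apart. Actg2, the enteric smooth muscle actin, had knockout means of 263 and 127 CPM (-1.05, SE 0.29, adjusted p = 0.137). In whole tissue, fewer cells of a type and less RNA per cell cannot be told apart. With a term for this summed level, added after seeing it, 22 genes passed in knockout and 17 of the 35 were among them. In that fit Nr1d1, Efnb2 and Mmp9 passed, while Col3a1 (-0.44, SE 0.13, adjusted p = 0.306), Armcx1 (-0.91, SE 0.28, adjusted p = 0.306) and Gpsm2 (-0.47, SE 0.11, adjusted p = 0.0973) did not. Its part in the result was not tested. In the list of fibroblast and endothelial markers 1 of 11, Col3a1, fell, and the collagen genes Col1a1 (-0.74, SE 0.21) and Col1a2 (-0.54, SE 0.18) did not pass. The enteric neuron and glia markers summed to 73.9 to 91.6 CPM at CT9 and 54.8 to 71.5 CPM at CT13, and 0 of 10 passed.

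**Figure D5:**
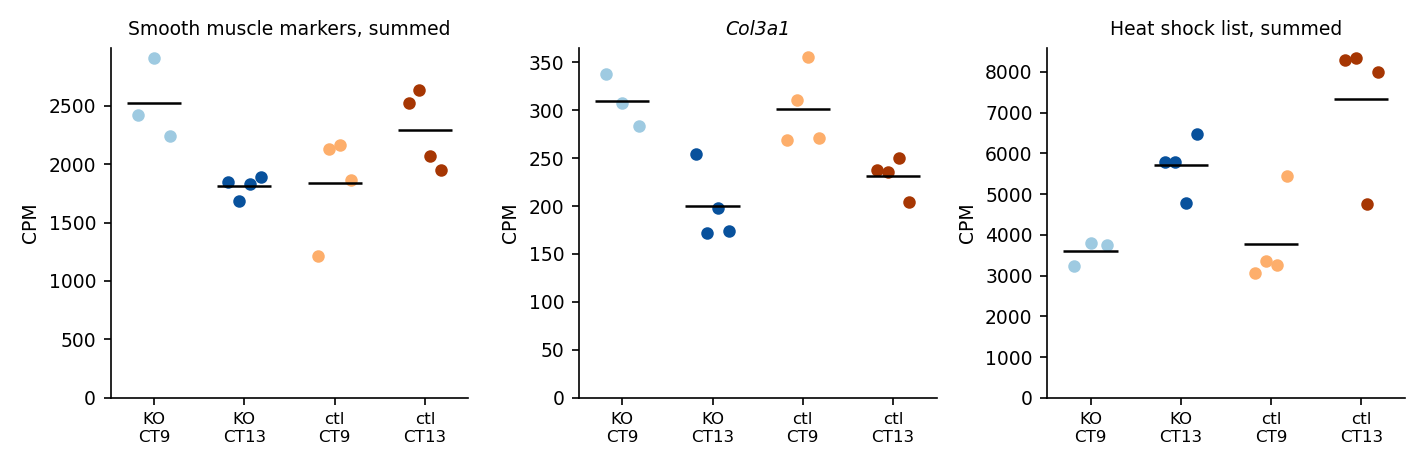
Summed CPM of the 10 smooth muscle markers (left), CPM of Col3a1 (middle) and summed CPM of the 20 heat shock and chaperone genes (right) in each library, in knockout (KO, blue) and control (ctl, orange) at CT9 and CT13, with bars at the group means. The knockout smooth muscle sums lie at 2244 to 2912 CPM at CT9 and 1688 to 1889 CPM at CT13. The knockout heat shock sums lie higher at CT13 without overlap, whereas the control heat shock sums overlap between the times.

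Of 45 lists, 7 had a called member and 38 had 0, and 23 of the 35 genes lie in no list. With 0.224% of all genes called, a list of this size mostly holds no call, so a count of 0 is not a result about a list. Xenobiotic metabolism (0 of 31 passed, median 0.00), peptide and amino acid uptake (0 of 18, 0.11), ion, phosphate, sulfate and water transport (0 of 19, -0.09) and tight junctions (0 of 14, -0.03) lay near the median of all genes. The drug exporter Abcb1a had the lowest p among the xenobiotic genes, with means of 246 and 134 CPM and no overlap (-0.88, SE 0.27, adjusted p = 0.225). The bile acid list passed in 0 of 6 genes. Its summed level was 904 to 980 CPM at CT9 and 677 to 738 CPM at CT13 in knockout, and 1054 to 1590 and 580 to 887 CPM in control. Sums of other lists did not overlap in knockout either, such as crypt stem cells (1033 to 1253 and 854 to 1032 CPM) and iron uptake and storage (2620 to 2842 and 2988 to 3198 CPM). Cell cycle (0 of 26, median -0.16), crypt stem cell (0 of 10, -0.14), interferon and MHC class I (0 of 27, -0.14) and immediate-early genes (0 of 12, 0.10) had no call either. The cold-inducible RNA-binding protein gene Cirbp, whose level follows body temperature inversely, had means of 31.8 and 21.0 CPM in knockout with no overlap (-0.59, SE 0.30, adjusted p = 0.627), and a change of -1.07 (adjusted p = 0.0241) in control. The antimicrobial lectin Reg3g had means of 1902 and 694 CPM, but its groups overlapped (-1.45, SE 0.68, adjusted p = 0.571). Goblet (0 of 8), Paneth (0 of 10), tuft (0 of 6), enteroendocrine (0 of 13), T cell (0 of 10) and B and plasma cell markers (0 of 10) had no call, and their summed levels overlapped between the times. Red blood cell genes summed to 8.16 to 9.87 CPM at CT9 and 9.57 to 23.0 CPM at CT13.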

How the data were processed

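The authors deposited 1 table of unscaled counts of reads for 55401 gene IDs, with a column per library. NucleoSpin columns were used for the RNA and a TruSeq Stranded mRNA kit for the libraries, per the labels' protocols. Per the submitters' processing notes, the tools listed are STAR 2.7.5c, Trimmomatic 0.39, featureCounts 1.4.6, FastQC 0.11.5, SAMtools 1.3.1 and DESeq2 1.22.0, and the build is mm10. Neither the strand setting nor the handling of reads that fit several places is given in the sources used here.

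From these counts, low genes were removed (edgeR's filterByExpr over 12 groups, minimum count 10 and total 15) and libraries were scaled by TMM. A robust quasi-likelihood model of group means was fitted to all 47 libraries in R 4.3.3 with edgeR 4.0.16 (35 residual degrees of freedom), so all groups share 1 estimate of spread. Each adjusted p is from edgeR's quasi-likelihood test with Benjamini-Hochberg adjustment across all 15646 genes, with a threshold of 0.05, and log2 changes are CT13 minus CT9. The difference between genotypes is the knockout change minus the control change. A count of 0 allows up to 3 counts, which is 0.434 to 0.565 per M in the libraries compared. Floors and counting intervals cover counting error only, since reads lack molecular identifiers. No 2 libraries of a compared group agreed within sampling noise (chi-square per degree of freedom 3.23 to 9.10). The model was tested on simulated data.

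Genes were named by rule: up to 12 rises and 12 falls by size among protein-coding genes that passed, did not overlap and reached 5 CPM, all clock genes, up to 4 members of each list (or the one with the lowest p), and genes past the test of the difference. Members, lists and tests were chosen with earlier results of these data known. Symbols came from GENCODE vM21, with which 54349 IDs matched, 792 matched with the version ignored and 260 did not match. Promoters came from a RefSeq table of GRCm38.p6. Alternatives were other scalings, no filter, DESeq2 1.42.0, limma 3.58.1 voom, fewer libraries, and terms for the sample number and smooth muscle content. Some items are not reported here.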

Additional observations from a re-analysis of the deposited data

Results flagged for a closer look

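A knockout CT13 library lay far from the other 3 in 7 groups reported here, and chance flags about 1 in 20. The 70 groups of 4 libraries examined include control groups, so 7 of 70 is not the share for knockout CT13. Replicate 1 was the lowest for Arntl2 (0.878 CPM, next 2.32) and the highest for Cntnap1 (18.9 CPM, next 13.9) and Cry1 (63.3 CPM, next 54.9). Replicate 4 was the highest for Leap2 (130.0 CPM, next 107), Slc47a1 (191 CPM, next 129) and Tsku (49.0 CPM, next 33.9). Replicate 2 was the highest for Nr1d1 (11.2 CPM, next 8.78).

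The change from CT9 to CT13 differed between the genotypes, by edgeR's quasi-likelihood test of the difference itself, for Ces1d (-2.87 on the log2 scale, knockout minus control), G6pc (-1.87) and Pcp4l1 (-1.70).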

How the results depend on the processing

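The knockout count of 35 genes became 20 without a filter on low counts, 92 with DESeq2, 148 with only the libraries of the groups compared (25 of the 35 among them, and Hspa1b, Hspa1a, Fkbp5, Tsc22d3, Pck1 and Noct among the 10 that were not), 177 without the 5 libraries that stood apart, 8 with the sample number term, 1 with only the knockout CT13 library numbered below 430, and 22 with the smooth muscle term, which was added after seeing the data. It was 35 or 36 under the other scalings and 38 with voom. Leaving out each library in turn gave 5 to 40 genes. The control count of 523 became 317 without a filter and 1391 without the 5 libraries, and 247 to 745 on leaving out each library. The 4 differences between genotypes became 11 without the 5 libraries, 2 with only the knockout CT13 library numbered below 430, 2 with the smooth muscle term and 2 to 6 on leaving out each library. The causes of these moves were not tested. Over 17 settings the 35 genes kept their direction in all 595 pairs of gene and setting and their call in 355. The settings reuse most of the same libraries and the groups of these genes did not overlap, so a kept direction was likely in advance. No paired analysis was possible because the labels give no replicate numbers, and those used here only name libraries. The median SE of a knockout log2 change was 0.222, which limits calls of small changes at this depth and number of libraries.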

Other observations

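The fit without the 5 libraries that stood apart had a smaller median SE (0.182 against 0.222) and passed further groups of genes in knockout. Per2 (1.14, SE 0.22, adjusted p = 0.00524), Pdk4 (2.53, SE 0.55, adjusted p = 0.0160) and the apolipoprotein gene Apoa1 (0.52, SE 0.13, adjusted p = 0.0384) rose, Apoa1 from a mean of 3946 to 5708 CPM. The stress-induced mTOR inhibitor gene Ddit4 rose as well (0.87, SE 0.22, adjusted p = 0.0350). Of the smooth muscle markers, 4 of 10 fell (Acta2, Cnn1, Actg2 and Smtn), beside 64 of all 16463 genes in that fit. Falls also passed for the collagen genes Col1a1 (-0.74, SE 0.15), Col1a2 (-0.55, SE 0.14) and Col3a1. The cyclin genes Ccna2 and Ccnb2 and the cholesterol synthesis gene Fdft1 fell as well. These values come from the same 7 libraries as in the report. The whole fit was redone without those 5, so the genes tested (16463 against 15646), the scaling, the spread and the adjustment all changed.

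In that fit 11 genes passed the test of the difference between genotypes. Slc2a5, the fructose transporter GLUT5, had knockout means of 54.4 and 57.3 CPM and fell from 196 to 106 CPM in control, a difference of 0.94 (SE 0.17, adjusted p = 0.00516). Gclc, the catalytic subunit of the enzyme that limits glutathione synthesis, had knockout means of 61.3 and 56.3 CPM and rose from 80.4 to 167 CPM in control (-1.19, SE 0.23, adjusted p = 0.0231). The smooth muscle genes Cnn1 (-1.19, SE 0.24), Csrp1 (-0.83, SE 0.18) and Ppp1r12b (-0.78, SE 0.16) were also among the 11, beside the smooth muscle sums given for the 2 genotypes.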
